A study of Mus musculus with 6 samples.

Results

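The genes described here are 10 factors and cell adhesion genes that act while kidney mesenchyme turns into nephron epithelium. They are the paired-box factors Pax2 and Pax8, the LIM homeobox factor Lhx1, the homeobox factor Emx2, and the cadherins Cdh1, Cdh2, Cdh4, Cdh6, Cdh11 and Cdh16. They were chosen by name, and their probes were found by matching the RefSeq accession printed for each probe of the array to the gene. All 10 genes were found, through 15 of the 40987 probes that could be used on every array, and they are 10 of the 26396 features tested. All 15 probes were well above background on all 6 arrays, so that none of the genes was lost to the filter on low signal.

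Transcripts of 6 samples of embryonic mouse kidney were measured, each on its own one-colour Agilent array. The embryos were E14.5 hybrids of 129 and C57BL/6. The zinc finger factor Sall1, which nephron progenitors express, was deleted from a floxed allele in 2 ways. The Six2Cre line, in which Cre acts in the nephron progenitors, gave controls 5 and 2 and Sall1 knockouts 7 and 9, named by their replicate numbers. In the line labelled Sall1CreER, tamoxifen was given at E12.5 and the kidneys were collected after 48 hours; it gave control 2, titled wt/flox, and knockout 5, titled CreER/flox. These are called the CreER control and the CreER knockout here. The line of each sample was read from the style of its title together with the design text, and a description shared by all 6 samples mentions tamoxifen. The title names CreER for the knockout of that pair alone, so the presence of CreER and the loss of Sall1 cannot be told apart there. Neither the Cre status of the Six2Cre controls nor the number of embryos behind a sample is stated, so p-values measure the spread between these samples, which may be technical. Whole kidneys were profiled, and they hold ureteric bud, stroma and vessels beside the nephron lineage.

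Nephrons arise when progenitors of the cap mesenchyme are induced next to the ureteric bud tip, aggregate, and polarize into a renal vesicle with a lumen. Pax2 is present in the progenitors and in the ureteric bud, and Pax8 and Lhx1 come on in the induced aggregate and the vesicle. Cadherins, which hold neighbouring cells together through calcium-dependent binding, are exchanged in the process: Cdh11 and Cdh2 belong to mesenchyme and early aggregates, Cdh4 and Cdh6 to vesicles and young tubules, and Cdh1 and Cdh16 to polarized epithelium, the ureteric bud included.

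Levels are given as the log2 of the processed signal minus the 75th percentile of the array, so a level of 0 equals that percentile. A level describes 1 probe and is not compared between genes. Differences are log2 values, knockout minus control. Six2Cre control 5 and knockout 7 were on slide 1, and control 2, knockout 9 and both CreER arrays on slide 2, so each slide gives a Six2Cre pair. From 71.6% to 82.9% of probes were well above background, with the lowest share on CreER knockout 5, where negative control spots had an SD of 4.01 against 1.46 to 1.61 elsewhere. Sall1 itself was 2.37-fold lower in Six2Cre knockouts (-1.26 and -1.23 within the slides) and 6.87-fold lower in the CreER knockout, as read by a single probe, of which it is not stated whether it lies in the floxed part. Control 2 of the Six2Cre line stood apart in skeletal muscle genes: the summed linear level of 12 of them was 37.7 there and from 1.88 to 4.05 on the other 5 arrays.

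Among the 10 genes, Lhx1 differed most in the Six2Cre line, 3.02-fold lower in the knockouts than in the controls, while the other 9 differed by between -0.54 and 0.37. Lhx1, which the renal vesicle needs to go on to later nephron stages, had levels of 2.16 and 2.80 in the Six2Cre controls and of 0.32 and 1.45 in the knockouts. The CreER control had a level of 2.18 and the CreER knockout one of 2.03. Both Six2Cre knockouts thus lay below all 4 other arrays, and the CreER knockout lay close to its control. The difference was -1.83 in the slide 1 pair (3.56-fold) and -1.35 in the slide 2 pair (2.56-fold), with a mean of -1.59 (SE 0.49, 95% interval -2.86 to -0.32, n = 2 arrays per group). The test over all features, limma with 4 groups, gave an adjusted p of 0.604 (unadjusted 0.0239), so Lhx1 was not called. Of the 10 genes 0 were called and 1, Lhx1, had an unadjusted p under 0.05, against 0% of all features called and 2.68% lower and 3.64% higher at that unadjusted level. The same test called 0 of 26396 features in either direction (lowest limma adjusted p 0.0828), with 708 lower and 961 higher at an unadjusted p under 0.05.

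With slide as a block, limma gave Lhx1 an adjusted p of 0.143, and adding the trend and robust options of eBayes to that block one of 0.00615. That last setting called 1 of the 10 genes, Lhx1, against 1.27% of features called lower and 1.23% called higher; the limma adjusted p of the other 9 genes there ran from 0.404 to 0.996. It rests on 1 residual degree of freedom, and leaving out any Six2Cre array leaves none for it. Without the block, leaving out 1 array moved the Lhx1 difference to between -2.16 (without knockout 9) and -1.03 (without knockout 7), and to -1.27 without control 2, the array of high muscle genes. Lhx1 was also the only one of the 10 genes at least 2-fold lower in both slide pairs, which 1.67% of features were. In samples of whole kidney, fewer cells of a type and less RNA per cell cannot be told apart, here and for every gene that follows.

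**Figure D1:**
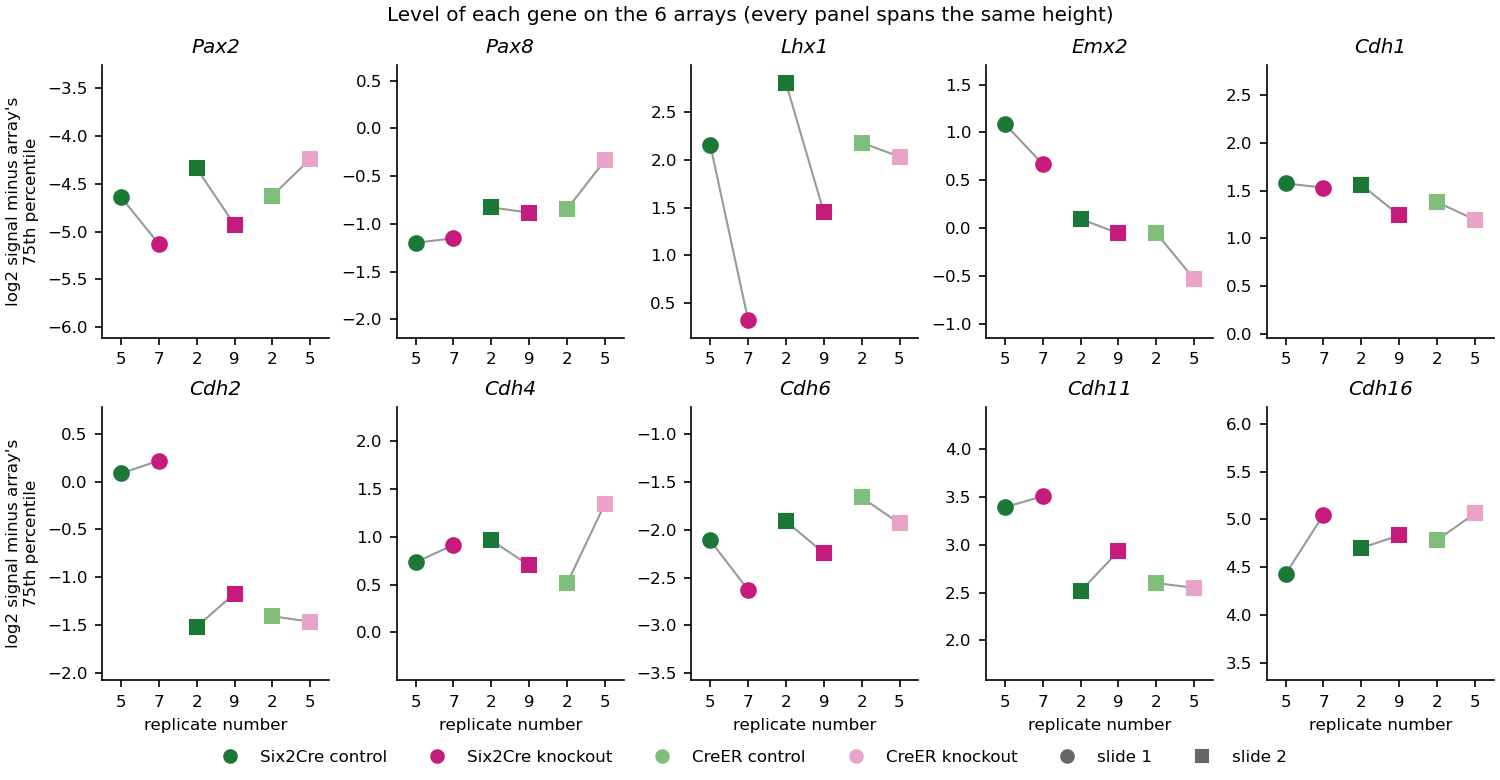
Level of each of the 10 genes on the 6 arrays (y axis, log2 signal minus the array's 75th percentile; each panel spans the same height; x axis, replicate number). Each point is 1 array, coloured by group, and a grey line joins the knockout and control of a pair. Lhx1 goes from 2.16 to 0.32 and from 2.80 to 1.45 in the Six2Cre pairs, whereas Cdh2 separates by slide.

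RefSeq promoter windows of GRCm38.p6 were given for 5 of the 10 genes, in 7 entries, and the 150 bases upstream of the start are shown for the 3 of them that were lower in all 3 pairs, Lhx1, Emx2 and Cdh6. Capitals mark letters of a searched motif, 5′ to 3′ on the gene's strand. Lhx1 is at chr11:84525535-84525684 on the minus strand, Emx2 at chr19:59458540-59458689 on the plus strand and Cdh6 at chr15:13173676-13173825 on the minus strand.
Lhx1: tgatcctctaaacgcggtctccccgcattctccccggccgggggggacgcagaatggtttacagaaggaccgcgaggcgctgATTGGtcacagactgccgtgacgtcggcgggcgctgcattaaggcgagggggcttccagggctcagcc
Emx2: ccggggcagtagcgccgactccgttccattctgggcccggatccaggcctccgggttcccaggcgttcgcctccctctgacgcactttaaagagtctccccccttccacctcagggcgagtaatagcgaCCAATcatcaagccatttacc
Cdh6: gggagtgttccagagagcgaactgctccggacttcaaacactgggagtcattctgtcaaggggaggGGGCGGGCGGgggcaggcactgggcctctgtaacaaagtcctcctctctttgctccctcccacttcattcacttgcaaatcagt
The letters of a CCAAT box began at -68 from the Lhx1 start, on the reverse strand (ATTGG), and at -21 from the Emx2 start. A pair of overlapping GC boxes (GGGCGG) began at -84 and -80 from the Cdh6 start. Over the full 300-base windows, on either strand, CCAAT stood in 3 of the 7 entries and in 37.4% of all 32851 promoters, and GGGCGG in 5 of 7 and 35.7%. CAGGTG, an E-box of the kind that Snail proteins bind, stood in 2 of 7 and 20.2%. TATAAA stood in 0 of 7 and 13.6%, and CTTTGA, the core of Tcf/Lef sites, in 0 of 7 and 16%. A match is only a run of letters in this window.

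Pax2, a paired-box factor without which no kidney forms, was lower in both Six2Cre pairs and higher in the CreER pair. Its levels were -4.64 and -4.34 in the Six2Cre controls, -5.13 and -4.93 in the knockouts, -4.62 in the CreER control and -4.24 in the CreER knockout. The Six2Cre groups did not overlap, and the CreER knockout had the highest level of the 6 arrays. The differences of -0.49 and -0.59 gave a mean of -0.54 (1.45-fold lower, SE 0.27, 95% interval -1.24 to 0.16, limma adjusted p 0.975). The CreER pair differed by 0.38. The processed signals of this probe lay between 58.0 and 94.1 units, on arrays whose dimmest signal called well above background was 7.38 to 20.9 units. With normexp background correction and quantile normalization the Six2Cre mean was -0.27, so its size depends on the processing. With slide as a block the limma adjusted p was 0.407 (unadjusted 0.0426, under 0.05 as for 3073 of 26396 features).

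Pax8, the paired-box factor that acts beside Pax2 in the early nephron, showed no such difference in the Six2Cre line. Its levels were -1.20 and -0.83 in the controls and -1.15 and -0.88 in the knockouts, and the groups overlapped. The mean difference was -0.00394 with a 95% interval from -0.74 to 0.73, an interval that still holds changes of more than 1.5-fold either way. In the CreER pair Pax8 went from -0.85 to -0.33, a difference of 0.51 (1.43-fold) between 1 array and 1 array.

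Emx2, a homeobox factor of ureteric bud and early nephron epithelium, was lower in all 3 pairs by small amounts that did not pass the test. Its levels were 1.09 and 0.67 on slide 1 (Six2Cre control 5 and knockout 7). On slide 2 they were 0.10 and -0.06 in the Six2Cre pair and -0.05 and -0.53 in the CreER pair. The slide 1 arrays lay above all slide 2 arrays, and the difference between slides in the Six2Cre line, 0.86, was larger than any of the pair differences (-0.42, -0.15 and -0.48). The mean Six2Cre difference was -0.29 (SE 0.47, 95% interval -1.51 to 0.93, limma adjusted p 1.00). That SE holds the difference between slides. With slide as a block, on 1 residual degree of freedom, the SE was 0.19 and the limma adjusted p 0.649. A second Emx2 probe gave -0.43 and 0.29 within the slides and -0.22 in the CreER pair, so the direction on slide 2 differed between the probes.

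Of the cadherins, none differed by 2-fold in the Six2Cre line, and Cdh1, Cdh6 and Cdh16 had groups that did not overlap. Counted over the 10 genes, 5 had groups that did not overlap (Pax2, Lhx1, Cdh1 and Cdh6 with the knockouts lower, Cdh16 with them higher), against 30.2% of all features in either direction. Of the 10 genes, 8 had the same sign in both slide pairs, as 58.9% of all features did. The median difference of the 10 was -0.11, and that of all features 0.03.

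Cdh1, which encodes E-cadherin of the ureteric bud and the distal nephron, had the narrowest range over the 6 arrays of the 10 genes. Its levels were 1.58 and 1.56 in the Six2Cre controls, 1.53 and 1.24 in the knockouts, 1.38 in the CreER control and 1.20 in the CreER knockout. Each knockout lay below its control, by -0.04 on slide 1, -0.32 on slide 2 and -0.18 in the CreER pair. The mean Six2Cre difference was -0.18 (SE 0.26, 95% interval -0.85 to 0.49), and the 6 arrays spanned 0.38 in all.

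Cdh6, which encodes K-cadherin of the renal vesicle and the future proximal tubule, was also lower in each pair. Its levels were -2.11 and -1.91 in the Six2Cre controls, -2.63 and -2.24 in the knockouts, -1.66 in the CreER control and -1.93 in the CreER knockout. The differences of -0.52, -0.33 and -0.27 all had 1 sign. The Six2Cre mean was -0.43 (1.34-fold lower, SE 0.28, 95% interval -1.15 to 0.30), so a 2-fold loss lay within its interval. In the same arrays the summed level of 9 proximal tubule markers was 6.26 and 6.07 in the Six2Cre controls and 1.08 and 1.28 in the knockouts, with 8 of the 9 lower. It was 5.26 in the CreER control and 5.95 in the CreER knockout, and its part in the Cdh6 values was not tested.

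Cdh16, which encodes Ksp-cadherin, a kidney-specific cadherin of tubules and collecting duct, was higher in each pair. Its levels were 4.43 and 4.70 in the Six2Cre controls, 5.05 and 4.83 in the knockouts, 4.78 in the CreER control and 5.06 in the CreER knockout. The knockouts lay above both controls, and the differences were 0.62 on slide 1, 0.13 on slide 2 and 0.28 in the CreER pair. The Six2Cre mean was 0.37 (1.30-fold higher, SE 0.26, 95% interval -0.32 to 1.07, limma adjusted p 1.00). The summed level of 14 markers of ureteric bud and collecting duct was 76.2 and 86.6 in the Six2Cre controls and 118 and 99.8 in the knockouts, with 9 of the 14 higher. It was 92.8 and 99.7 in the CreER control and knockout. The part of these cells in the Cdh16 values was not tested.

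Cdh2, which encodes N-cadherin, separated the arrays by slide. Its levels on slide 1 were 0.09 in Six2Cre control 5 and 0.22 in knockout 7. On slide 2 they were -1.52 in Six2Cre control 2, -1.17 in knockout 9, -1.41 in the CreER control and -1.47 in the CreER knockout. Slide 1 was 2.82-fold above slide 2 in the Six2Cre line, a difference that 3.10% of all features reached in either direction, and no other of the 10 genes differed by 2-fold between slides. Within the slides the knockout minus control values were 0.13 and 0.35, and the CreER pair gave -0.06. The mean of 0.24 therefore carried an SE of 0.73 and a 95% interval from -1.67 to 2.15. With slide as a block the SE was 0.18 and the limma adjusted p 0.690.

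Cdh11, a cadherin of mesenchyme and stroma, had levels of 3.40 and 3.51 on slide 1 (Six2Cre control and knockout). On slide 2 they were 2.52 and 2.94 in the Six2Cre pair and 2.60 and 2.55 in the CreER pair. Here too the slide 1 arrays lay highest, and the pair differences were 0.11, 0.42 and -0.05. The Six2Cre mean was 0.27 (SE 0.42, 95% interval -0.82 to 1.36). With slide as a block the SE was 0.19 and the limma adjusted p 0.673. Both other probes of the gene were also slightly higher in the Six2Cre knockouts (0.21 and 0.10). The slide difference was 0.73 for the brightest probe and 0.33 for the second, of which both slide 1 values also lay above all slide 2 values, and -0.37 for the third. In the CreER pair these other probes gave 0.04 and -0.07, so the direction there depends on the probe. The summed level of 11 stroma markers was 113 and 93.9 in the Six2Cre controls and 190 and 162 in the knockouts, with 10 of the 11 higher, and 82.9 and 90.8 in the CreER control and knockout. Their part in the Cdh11 values was not tested.

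Cdh4, which encodes R-cadherin of the forming vesicle, had the largest CreER difference of the 10 genes. Its levels were 0.73 and 0.96 in the Six2Cre controls and 0.92 and 0.70 in the knockouts, which overlapped. They were 0.51 in the CreER control, the lowest of the 6 arrays, and 1.34 in the CreER knockout, the highest. The Six2Cre mean was -0.04 (SE 0.26, 95% interval -0.72 to 0.64), and the CreER difference was 0.83 (1.78-fold higher). Its 3 probes gave CreER differences of 0.97, 0.84 and 0.83, and Six2Cre means of -0.17, -0.23 and -0.04. The probes read the same RNA of 1 control and 1 knockout, so their likeness is no replication.

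**Figure D2:**
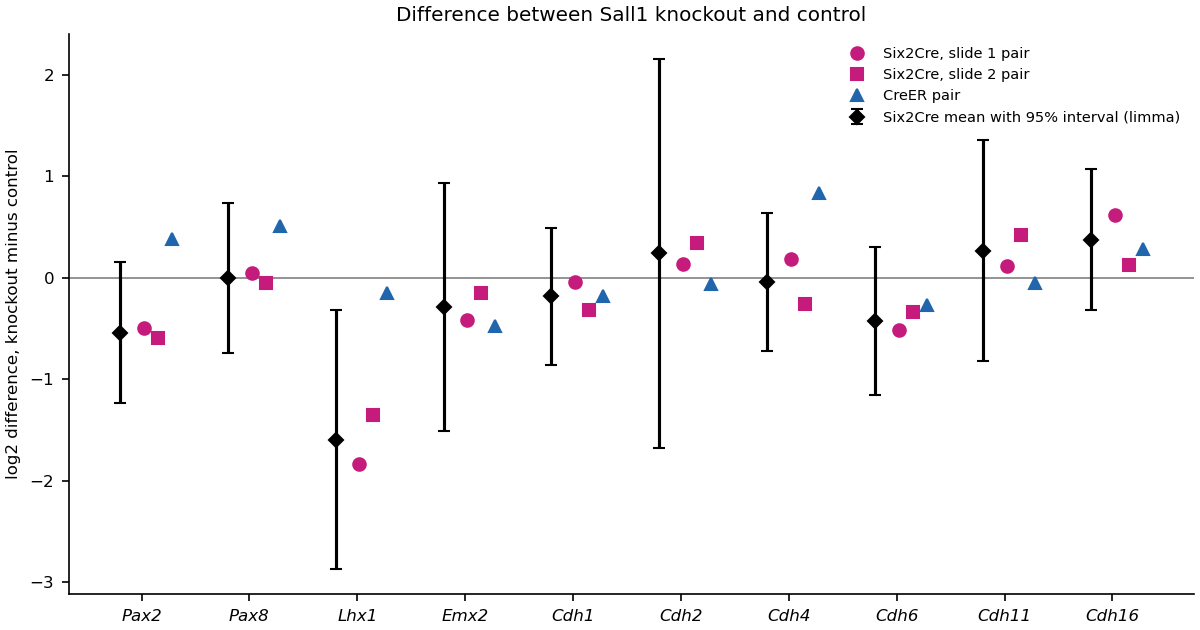
Knockout minus control (y axis, log2) for each of the 10 genes: magenta points are the Six2Cre pairs on slide 1 (circle) and slide 2 (square), blue triangles the CreER pair, and black diamonds the Six2Cre mean with its 95% interval from limma. Of the 10 intervals, that of Lhx1 (-2.86 to -0.32) does not hold 0, and that of Cdh2 is the widest.

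**Figure D3:**
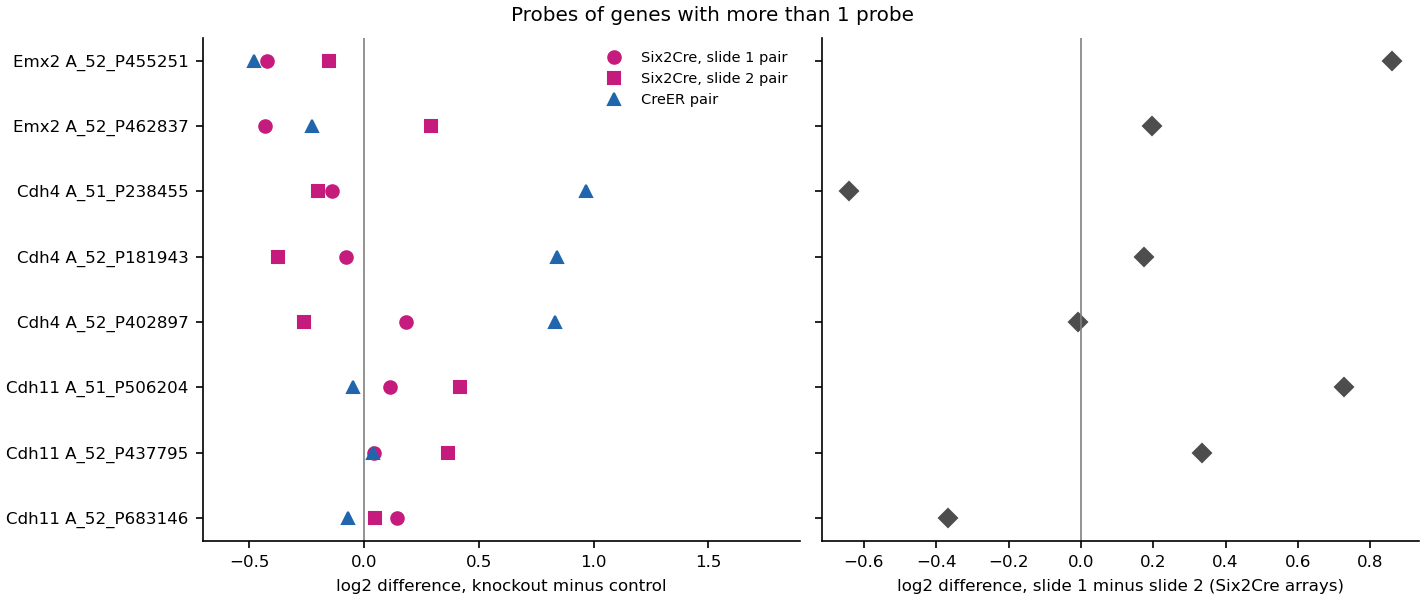
The 8 probes of the 3 genes with more than 1 probe (rows). The left panel gives knockout minus control (log2) in each pair and the right panel the slide 1 minus slide 2 difference of the Six2Cre arrays (log2). The Cdh4 probes lie at 0.97, 0.84 and 0.83 in the CreER pair, and the Cdh11 probes at 0.73, 0.33 and -0.37 between slides.

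The CreER comparison asks how the same genes stood 48 hours after induced deletion. Between its 2 arrays the differences of the 10 genes ran from -0.48 (Emx2) to 0.83 (Cdh4), with 6 lower and 4 higher and a median of -0.05 against -0.01 for all features. None of the 10 reached 2-fold, while of the features measured in that pair 2.22% were lower and 1.38% higher by that much. All 10 were well above background on both CreER arrays, and of the features for which this held 0.422% were lower and 1.29% higher by 2-fold. Lhx1 differed by -0.15 (1.11-fold lower). There is no replicate in this pair and no test of it. In all 3 pairs 4 of the 10 genes were lower (Lhx1, Emx2, Cdh1 and Cdh6), as were 14.4% of all features, and 1 was higher (Cdh16), as were 19.9%.

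A fit of genotype over the 6 arrays, with line and slide as covariates, brings the 3 pairs together. It gave -1.11 for Lhx1 (SE 0.36, limma adjusted p 0.474), -0.37 for Cdh6 (SE 0.12, limma adjusted p 0.469), -0.35 for Emx2 (SE 0.13, limma adjusted p 0.520) and 0.34 for Cdh16 (SE 0.15, limma adjusted p 0.560). None of the 10 genes was called, nor was any of the 26396 features (0%). With eBayes trend and robust again none of the 10 was called, against 0.0227% of features lower and 0.0227% higher. Lhx1 and Cdh6 had unadjusted p values under 0.05, as did 3.94% of features with the knockout lower and 5.78% with it higher.

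Whether the lines differ was tested as the CreER difference minus the Six2Cre difference, with the lone CreER arrays assumed to vary like the Six2Cre groups. For Lhx1 it was 1.45 (SE 0.84, 95% interval -0.76 to 3.65), for Pax2 0.92 (SE 0.46, 95% interval -0.29 to 2.13) and for Cdh4 0.87 (SE 0.45, 95% interval -0.31 to 2.05). Pax2, Cdh2 and Cdh11, 3 of the 10, had both Six2Cre pairs on one side of 0 and the CreER pair on the other, as 24.6% of all features did. Every one of the 10 genes had a limma adjusted p of 1.00 here, none had an unadjusted p under 0.05 in this fit, and 0% of all features were called (614 at an unadjusted p under 0.05). With slide as a block, Lhx1 and Pax2 had unadjusted p values under 0.05 (limma, 0.0213 and 0.0444), as did 5.23% of all features, with adjusted p of 0.802 and 0.927. With the trend and robust options added to the block, an alternative added after seeing the data, the limma adjusted p was 0.261 for Lhx1 and 0.769 for Cdh4. A difference between the lines in Lhx1 therefore passed in none of these 3 fits, and the interval holds both a smaller and a larger response in the CreER line.

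The genes around Lhx1 in nephron induction were mostly lower in the Six2Cre knockouts. Of 19 measured genes of this list, 16 were lower and 3 higher. Groups did not overlap for 15 of the lower and 2 of the higher genes, where 30.2% of all features did not in either direction. The list's median was -0.92 (slide 1: -0.95, slide 2: -0.77). Limma called 0 of them (9 lower at an unadjusted p under 0.05, against 2.68% of all features), and 9 lower with the slide block, trend and robust (against 1.27%). Dkk1, a secreted Wnt antagonist, was 3.31-fold lower (-1.73, SE 0.24, limma adjusted p 0.169) and -2.03 in the CreER pair. Osr2, a zinc finger factor, was 3.27-fold lower and the Notch ligand Dll1 2.96-fold lower. Fgf8, the ligand of the vesicle on which Lhx1 is known to depend, was 2.06-fold lower (-1.04, SE 0.24). In the CreER pair Osr2 differed by -0.09, Dll1 by -0.47 and Fgf8 by 0.16, the last in the other direction. Over the CreER pair the median of the list was -0.10, with 12 of the 19 lower.

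Genes listed as Pax partners and upstream factors were lower too, 12 of 12 measured, 8 without overlap (all features: 30.2% in either direction). The list is broader than its name and holds the integrin gene Itga8, so it gives no direction of regulation relative to Pax2. Of the 12, 7 also stand in other lists, and the deleted gene Sall1 is one of the 12. Their median was -0.58, and -0.37 and -0.49 by slide. Limma called 0 (5 lower at an unadjusted p under 0.05, against 2.68% of all features), and 4 lower with the block, trend and robust (against 1.27%). Those 4 were Six2, which maintains the progenitor state (3.02-fold lower), Eya1, a coactivator that works with Six2 and with Pax proteins (2.08-fold lower), the integrin gene Itga8 (2.00-fold lower) and Sall1, the deleted gene. Progenitor markers lay the same way: 10 of 10 were lower, and their summed level was 38.5 and 45.9 in the Six2Cre controls and 14.7 and 15.1 in the knockouts. It was 47.1 and 29.7 in the CreER control and knockout. A sum of linear levels is weighted to bright genes. In the CreER pair 7 of the 10 were lower, with a median of -0.25, and Cited1, with a level of 3.91 in the control, differed by -2.85. Of that marker list, 5 of 10 genes also stand in one of the other lists. The summed level of 7 loop and distal tubule markers was 4.92 and 4.27 in the Six2Cre controls and 0.527 and 0.625 in the knockouts, with 7 of 7 lower. The part of these cell types in the Lhx1 and Pax2 values was not tested.

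Junction genes that work with cadherins had medians near 0. Of 14 catenins and adherens junction partners, 10 were lower and 4 higher, with a median of -0.04. Limma called 0 with or without the block, trend and robust (all features with them: 1.27% lower and 1.23% higher). Without them 0 had an unadjusted p under 0.05 (all features: 2.68% lower and 3.64% higher). Groups did not overlap for 4 lower and 3 higher of the 14, against 30.2% of all features in either direction. Ctnna2, a neural alpha-catenin, was 0.64 (SE 0.32) and Ctnnd2, a delta-catenin, -0.43 (SE 0.31). The count of lower genes was 7 to 10 under 3 other scalings and 6 without Six2Cre control 5. Of 24 epithelial junction and polarity genes, 13 were lower and 11 higher, with a median of -0.06. Limma again called 0 in both settings, with 0 at an unadjusted p under 0.05, against the same shares of all features. Groups did not overlap for 5 lower and 3 higher of the 24 (all features: 30.2% in either direction). Without knockout 7 the count was 21 lower (median -0.27) and without knockout 9 it was 9 lower (median 0.17), so single arrays turned its sign. Their 4 genes of lowest p were Ovol1, an epithelial transcription factor (-0.56, SE 0.24), the claudins Cldn3 (0.58, SE 0.26) and Cldn4 (0.57, SE 0.34), and the polarity gene listed as Mpp5 (-0.75, SE 0.46). Mpp5 was -1.57 on slide 1 and 0.07 on slide 2, so 1 pair carried its mean.

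Mesenchymal factors and filaments were higher in 8 of 10, with a median of 0.31. Of the 10, 7 were higher and 2 lower without overlap, against 30.2% of all features without overlap in either direction. Limma called 0 (2 higher at an unadjusted p under 0.05, against 3.64% of all features), and 2 higher with the block, trend and robust (against 1.23%): Twist2 (2.02-fold higher) and Twist1 (2.06-fold higher), both basic helix-loop-helix factors of mesenchyme. The homeobox gene Prrx1 was 0.98 (SE 0.43) and the intermediate filament gene Vim 0.47 (SE 0.25). Stroma markers, given with Cdh11, were higher in the same arrays, and their part in these values was not tested.

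Among other classical and atypical cadherins, 11 of 13 measured were higher and 2 lower, and their median was 0.20 (slide 1: 0.15, slide 2: 0.41). Limma called 0, with 1 lower and 4 higher at an unadjusted p under 0.05 (all features: 2.68% and 3.64%). With the block, trend and robust it called 1 in each direction (all features: 1.27% and 1.23%). Cdh15, the M-cadherin of muscle precursors, was 7.69-fold lower. Its levels were -1.70 and -0.37 in the Six2Cre controls, -3.97 and -3.99 in the knockouts, and -1.20 and -1.38 in the CreER control and knockout. The difference was -2.27 on slide 1, where the summed level of the 12 muscle genes, Cdh15 among them, was 2.32 in the control and 2.02 in the knockout. It was -3.62 on slide 2, where that sum was 37.7 and 1.88. Counted by gene, 6 of the 12 were lower in the slide 1 pair (median -0.02) and 12 of the 12 in the slide 2 pair (median -4.44). The part of muscle in the Cdh15 values was not tested. Cdh10, a cadherin known from the nervous system, was 4.03-fold higher, with levels of -3.73 and -4.95 in the Six2Cre controls and -1.93 and -2.73 in the knockouts. Its CreER levels were -5.39 and -5.03. Cdh7 (1.08, SE 0.32) and Cdh18 (1.20, SE 0.35) were well above background on 3 of 6 arrays only. Their Six2Cre control levels were -8.19 and -8.82 (Cdh7) and -8.18 and -8.42 (Cdh18). In that line both genes were well above background on the knockouts and on neither control. They passed the filter there through the group in which they were high, so their place among the 4 higher is no support for a shift. Leaving out any 1 of the 4 Six2Cre arrays left 9 higher and 4 lower in the list.

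Relatives of the factors showed no shared direction. Of 18 measured Pax, LIM and Emx factors with LIM cofactors, 8 were lower and 10 higher, with a median of 0.04. Not all were clear of the floor, as 8 of the 18 were not well above background on every array. Limma called 0 in both settings (all features: 0%, and 1.27% lower and 1.23% higher with the block, trend and robust). At an unadjusted p under 0.05 there were 0 lower and 2 higher (all features: 2.68% and 3.64%). Without control 2 they stood at 9 and 9. Pax1, a factor of the skeleton and the thymus, was 3.68-fold higher but well above background on 5 of 6 arrays, and Isl2, a factor of motor neurons, was 2.41-fold higher. Emx1, the paralog of Emx2, was -0.93 (SE 0.39), and Ssbp2, a protein that binds the cofactor of LIM factors, was 0.64 (SE 0.31).

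**Figure D4:**
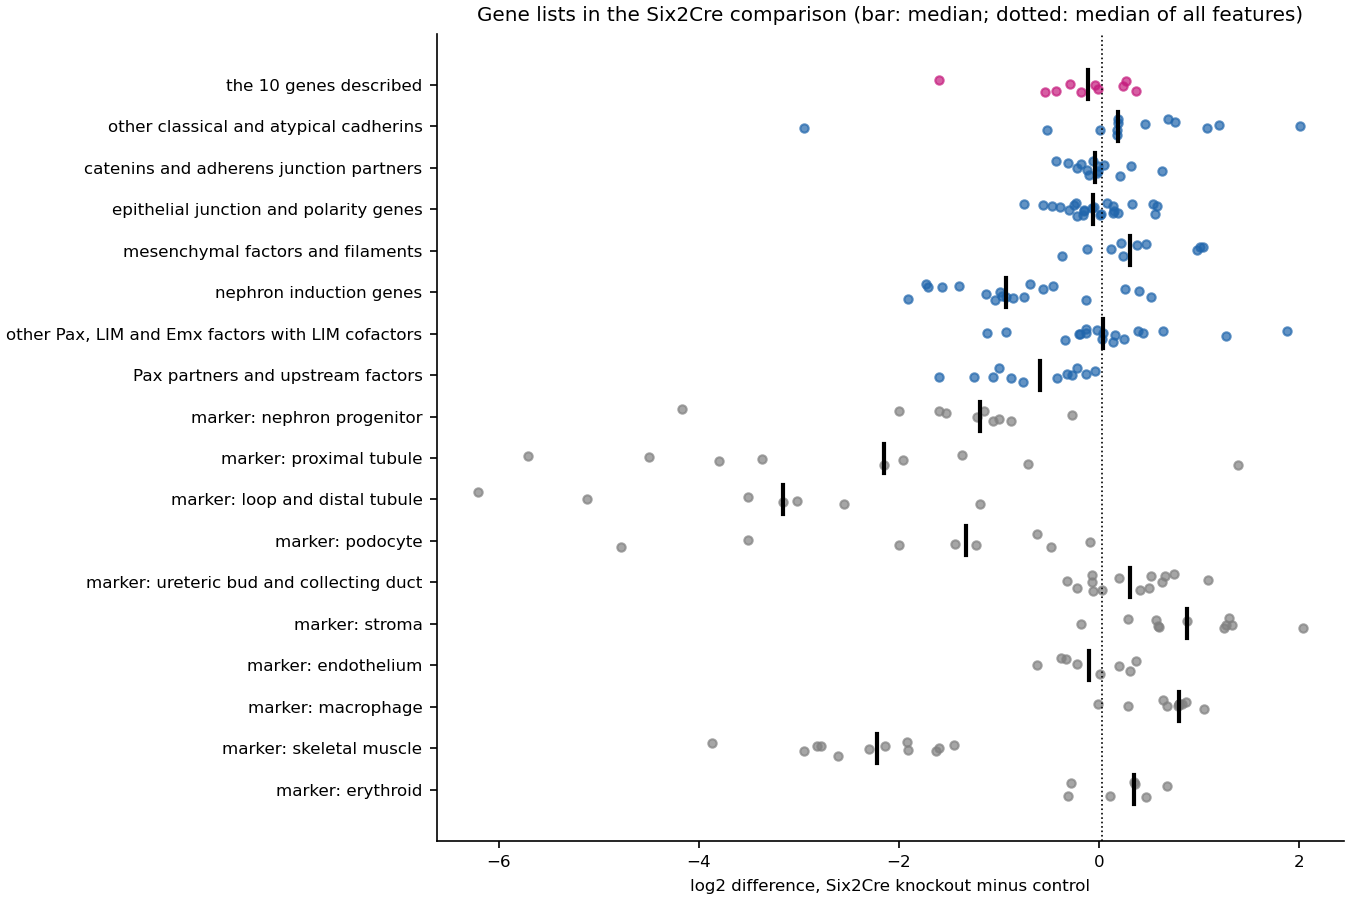
Difference in the Six2Cre line (x axis, log2, knockout minus control) for each measured gene (points) of the 10 genes described, of 7 gene lists and of 10 marker lists (rows), with the median of each row as a bar and that of all features, 0.03, as a dotted line. Nephron induction genes have a median of -0.92, whereas catenins (-0.04) and epithelial junction genes (-0.06) stay near the dotted line.

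For genes whose 6 values spanned at least 1 log2 unit, the 3 named genes of most similar pattern were taken by root mean square difference of centred levels over the 6 arrays. As they were chosen on these same values, their likeness in knockout or slide differences follows from the choice. Lhx1 spanned 2.48, and its closest genes were Pip5kl1 (0.175 log2 units), Dmgdh, a mitochondrial enzyme of choline breakdown (0.208), and Fbxw15 (0.219). Their Six2Cre differences were -1.33, -1.46 and -1.46, and their CreER differences -0.26, -0.31 and -0.20. Cdh2 spanned 1.74 and was matched more closely, by Dmd, which encodes dystrophin, then Zfp119b (0.0534) and Tjp1, a tight junction scaffold (0.0556). These differed between slides by 1.44, 1.49 and 1.42. Emx2 spanned 1.62, with Cep126 (0.105), Znrf2 (0.115) and Tnc (0.117) closest, which also differed by slide (0.98, 1.01 and 0.82). The other 7 genes spanned less than 1 log2 unit.

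**Figure D5:**
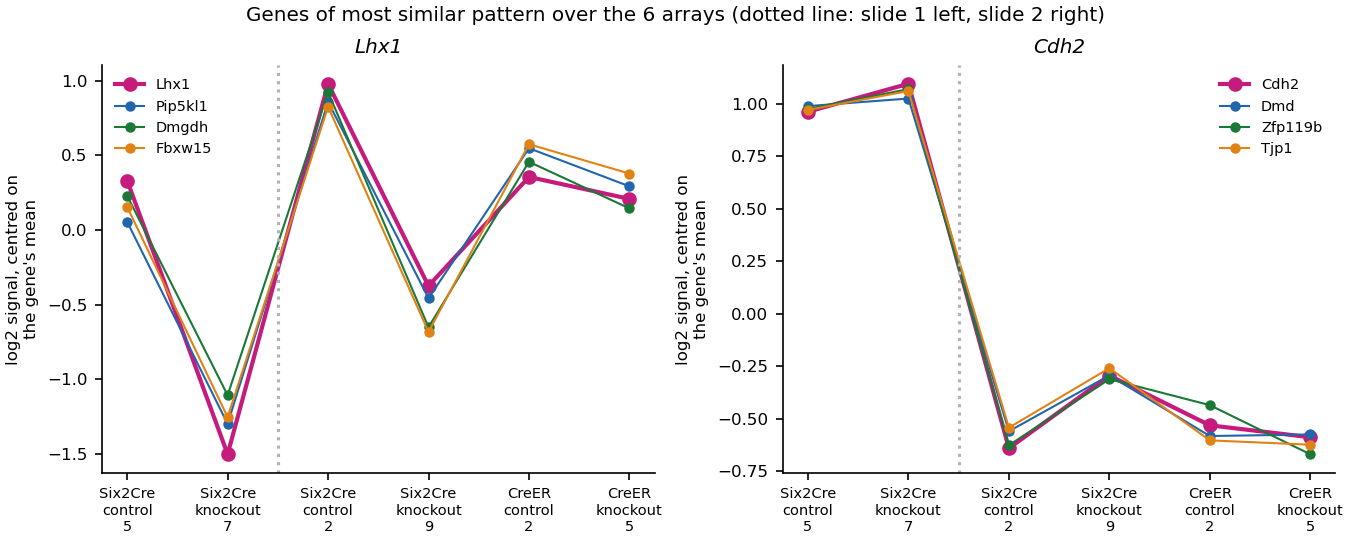
Levels centred on each gene's mean (y axis, log2) over the 6 arrays (x axis; a dotted line parts slide 1 from slide 2) for Lhx1 and Cdh2 with the 3 genes of most similar pattern each. Lhx1 and its neighbours are low on both Six2Cre knockout arrays, whereas Cdh2 and its neighbours are high on the 2 slide 1 arrays. The neighbours were chosen for this likeness on the same 6 arrays.

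Spots of 1 probe gave a measure of error within an array. The probes of Cdh1, Lhx1 and Pax2 are each printed 10 times, with 8 to 10, 8 to 10 and 9 to 10 usable spots. The SD of the log2 signal between spots ran from 0.0350 to 0.0681 for Cdh1, from 0.0194 to 0.0592 for Lhx1 and from 0.0519 to 0.146 for Pax2. This error covers the array surface alone, not the animals.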

How the data were processed

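Per the labels' protocols, total RNA was extracted with Trizol and 0.25 ug per sample was labelled with Cy3. The authors' scans were read out in Feature Extraction 10.5.1.1. Its processed signal, an intensity on a linear scale, had the background subtracted and a spatial trend removed on each array, with no scaling between arrays, per the file headers. The series' value table repeats this deposited intensity: over 40742 probes with 1 spot, 100% of values lay within a relative tolerance of 0.001, with column medians of 235.24, 217.72, 202.6, 216.94, 218.29 and 187.02 in the order Six2Cre control 5, knockout 7, control 2, knockout 9, CreER control 2 and knockout 5. From it, log2 values were computed, minus the 75th percentile of each array. Unflagged spots of a probe were averaged; of 41174 probes 40987 had one on every array, and 24991 took names of 17231 genes by RefSeq accession (GRCm38.p6 table). The brightest probe stood for a gene, and features well above background on at least 2 arrays were kept (26396, of which 15232 were named).

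Tests were limma 3.58.1 in R 4.3.3 (lmFit, eBayes, two-sided, Benjamini-Hochberg at 0.05), tested on simulated data; plots used matplotlib 3.10.9. The lone CreER arrays take their spread from the Six2Cre groups, which leaves 2 residual degrees of freedom. The number of arrays limits the precision. Named are all 10 genes, the 4 genes of lowest p of each list, and the 3 of most similar pattern. The members, the lists, the tests and the alternatives were chosen with earlier results of these data known. Scaling, background correction, filter, probe choice, variance moderation, slide and left-out arrays were varied.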

Additional observations from a re-analysis of the deposited data

Results flagged for a closer look

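In 3 of the 10 genes both Six2Cre pairs lay on one side of 0 and the CreER pair on the other, as 24.6% of all features did. For Pax2 the Six2Cre pairs were -0.49 and -0.59 and the CreER pair 0.38, a difference between lines of 0.92 (SE 0.46). With normexp and quantile normalization that difference was 0.50. For Cdh2 the values were 0.13, 0.35 and -0.06, a difference of -0.30 (SE 1.27), and for Cdh11 0.11, 0.42 and -0.05, a difference of -0.32 (SE 0.72). The Cdh11 case rests on the probe: a second probe gave 0.04 in both the slide 1 and the CreER pair and 0.37 on slide 2. The limma adjusted p of each difference was 1.00 (0.927 for Pax2 with slide as a block), and CreER knockout 5 was the array with the fewest probes well above background.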

How the results depend on the processing

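No pairing by replicate number was possible because the Six2Cre controls (5 and 2) and knockouts (7 and 9) share none, nor do the CreER arrays. The only pairing fitted was that within a slide, with slide as a block, given beside the results. Over all features, the Six2Cre count of 0 called became 127 (95 lower) with median scaling and 661 (336 lower) with slide as a block plus eBayes trend and robust. The genotype count of 0 became 59 (18 lower) with median scaling and 12 with trend and robust. The count of 0 for the difference between lines became 8 (1 lower) with slide as a block plus trend and robust, added after seeing the data. The CreER count of 933 features at least 2-fold apart became 386 (95 lower) when both arrays had to be well above background and 154 (53 lower) with normexp. The call of Lhx1 appeared only in the block with trend and robust. With every Six2Cre array kept, the limma adjusted p over its alternatives ran from 0.00615 to 0.692 (no filter on dim probes). The direction was kept in 17 of 17 alternatives. Many of these could not have turned it: changing only the filter, the averaging of probes, the variance model, the slide term or the CreER arrays returned the same difference, -1.59.

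Pax8 turned to 0.0331 in the Six2Cre line with median scaling, and the Cdh1 difference between lines to 0.0419 with normexp. Leaving out 1 array turned the sign of these Six2Cre values, with ranges of -0.19 to 0.18 (Pax8), -0.78 to 0.21 (Emx2), -0.56 to 1.04 (Cdh2), -0.156 to 0.0750 (Cdh4) and -0.17 to 0.71 (Cdh11). It also turned the genotype values of Pax8 (-0.00394 to 0.279) and Cdh4 (-0.0404 to 0.507). The differences between lines turned for Emx2 (-0.69 to 0.30), Cdh1 (-0.15 to 0.14), Cdh2 (-1.10 to 0.51), Cdh6 (-0.0380 to 0.347), Cdh11 (-0.76 to 0.12) and Cdh16 (-0.230 to 0.0427). In the Six2Cre line Pax2 (-0.69 to -0.39), Lhx1 (-2.16 to -1.03), Cdh1 (-0.33 to -0.04), Cdh6 (-0.62 to -0.23) and Cdh16 (0.24 to 0.51) kept their sign. The causes were not tested. A fit of the difference between lines without a CreER array was not possible, as no array of that group remains.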
